A study of Homo sapiens with 66 samples.

Results

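Kinesins are motor proteins that walk along microtubules, and they were followed here from pluripotent cells to neurons. Members were all protein-coding genes whose symbol is KIF, a number and at most 1 letter in both count tables, which gave 39 of 60603 gene IDs. Of these, 13 were set down as mitotic kinesins, 15 as transport kinesins and 11 as other kinesins. The pseudogene KIF28P, the minus-end directed KIFC genes and CENPE lay outside the rule.

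RNA sequencing covered 66 libraries of the human embryonic stem cell line H9, labelled wild type, in 22 groups of 3. hESC were the undifferentiated cells. hNMP-D1 to hNMP-D4 were neuromesodermal progenitors on days 1 to 4, in mTeSR1 on the first day and then with FGF-2, CHIR99021, SB431542 and Dorsomorphin. NeuDet-D1 to NeuDet-D6 were the following days in neural determination medium, which held FGF-2, FGF-8, CHIR99021, SB431542, Dorsomorphin and Compound E. hSCNPC-P5, -P10, -P20, -P30 and -P40 were spinal cord neural progenitors at those passages, kept in SB431542, CHIR99021 and Purmorphamine. hMN-D6, -D12, -D18, -D24, -D30 and -D42 were motor neuron cultures on those days, with Purmorphamine, Compound E, BDNF, GDNF and NT-3, and with Y27632 at plating. All groups came from 1 line. Nothing in the labels tells separate cultures from repeat libraries within a group, so p-values measure the spread between these libraries, which may be technical.

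Kinesins share a motor domain that splits ATP, and what surrounds it sets their work. During cell division they build the bipolar spindle, push and align chromosomes, trim microtubule ends and prepare the cut between daughter cells. In neurons, other kinesins carry vesicles, mitochondria and cytoskeletal cargo from the cell body outward along the axon and into dendrites. A neuron that has left the cell cycle keeps using transport kinesins for life, and mutations of KIF5A and KIF1A cause human motor neuron and axon disease.

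Many genes used in mitosis carry 2 short elements close to their start, the cell cycle homology region (CHR) and a CCAAT box, so both were looked up in RefSeq promoter windows of GRCh38.p14. The mitotic genes KIF11 (plus strand, chr10:92592980-92593129), KIF4A (plus strand, chrX:70289954-70290103), KIF22 (plus strand, chr16:29790601-29790750) and KIF20A (plus strand, chr5:138178962-138179111) are shown beside the transport gene KIF5B (minus strand, chr10:32056426-32056575). KIF11 and KIF4A show the usual arrangement, KIF22 a wider spacing and KIF20A CCAAT boxes without a CHR. KIF5B was the only transport kinesin with both elements among those with a window. Each run is the 150 bases before the annotated start, and capitals mark CHR (TTTGAA or TTCGAA) and CCAAT matches on either strand, so that TTCAAA and ATTGG are matches of the opposite strand.
KIF11: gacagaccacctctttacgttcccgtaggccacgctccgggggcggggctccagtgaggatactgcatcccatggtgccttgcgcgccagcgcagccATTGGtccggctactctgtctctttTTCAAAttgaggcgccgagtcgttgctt
KIF4A: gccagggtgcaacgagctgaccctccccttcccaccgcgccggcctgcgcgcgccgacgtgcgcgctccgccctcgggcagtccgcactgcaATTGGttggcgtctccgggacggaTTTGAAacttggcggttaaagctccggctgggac
KIF22: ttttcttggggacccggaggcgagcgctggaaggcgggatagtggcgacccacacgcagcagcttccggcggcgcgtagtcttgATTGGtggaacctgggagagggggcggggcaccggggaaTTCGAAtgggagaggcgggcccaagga
KIF20A: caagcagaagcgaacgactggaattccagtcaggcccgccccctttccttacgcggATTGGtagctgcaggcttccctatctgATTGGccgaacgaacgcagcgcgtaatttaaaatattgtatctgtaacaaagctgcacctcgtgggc
KIF5B: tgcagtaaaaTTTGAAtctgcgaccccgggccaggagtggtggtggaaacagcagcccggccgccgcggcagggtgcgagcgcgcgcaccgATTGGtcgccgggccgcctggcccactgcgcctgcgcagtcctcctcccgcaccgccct

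In KIF11 and KIF4A the CCAAT box stood upstream and the CHR closer to the start, with 25 and 24 bases between their first bases. In KIF22 the distance was 39 bases. KIF20A had 2 CCAAT boxes and no CHR, and KIF5B had the reverse order, with its CHR at -140 and its CCAAT box at -59 from the start. Windows of 300 bases, 250 before and 50 after the start, were at hand for 33 of the 39 members and none for KIF5A, KIF13B, KIF19, KIF21B, KIF26B and KIF27. A CHR match was present for 10 of 13 mitotic genes, in 78.6% of 14 windows, for 1 of 12 transport genes, in 5.88% of 17 windows, and in 16.4% of all 35116 windows. CCAAT matches were in 71.4% of mitotic windows, 29.4% of transport windows and 34.6% of all windows. Both together were in 64.3% of mitotic windows, 5.88% of transport windows and 6.38% of all windows, and in each of the 9 mitotic genes with both the CHR lay nearer the start, at spacings of 9 bases in KIF23 to 122 bases in KIF20B. The mitotic genes KIF2B and KIF2C had neither. KIF24, a kinesin that acts on centrioles, was the only member of the other class with both. TTCGAA reads the same on both strands, no CHR match overlapped a CCAAT match in the 9 genes, and a match is a description of sequence only.

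**Figure D1:**
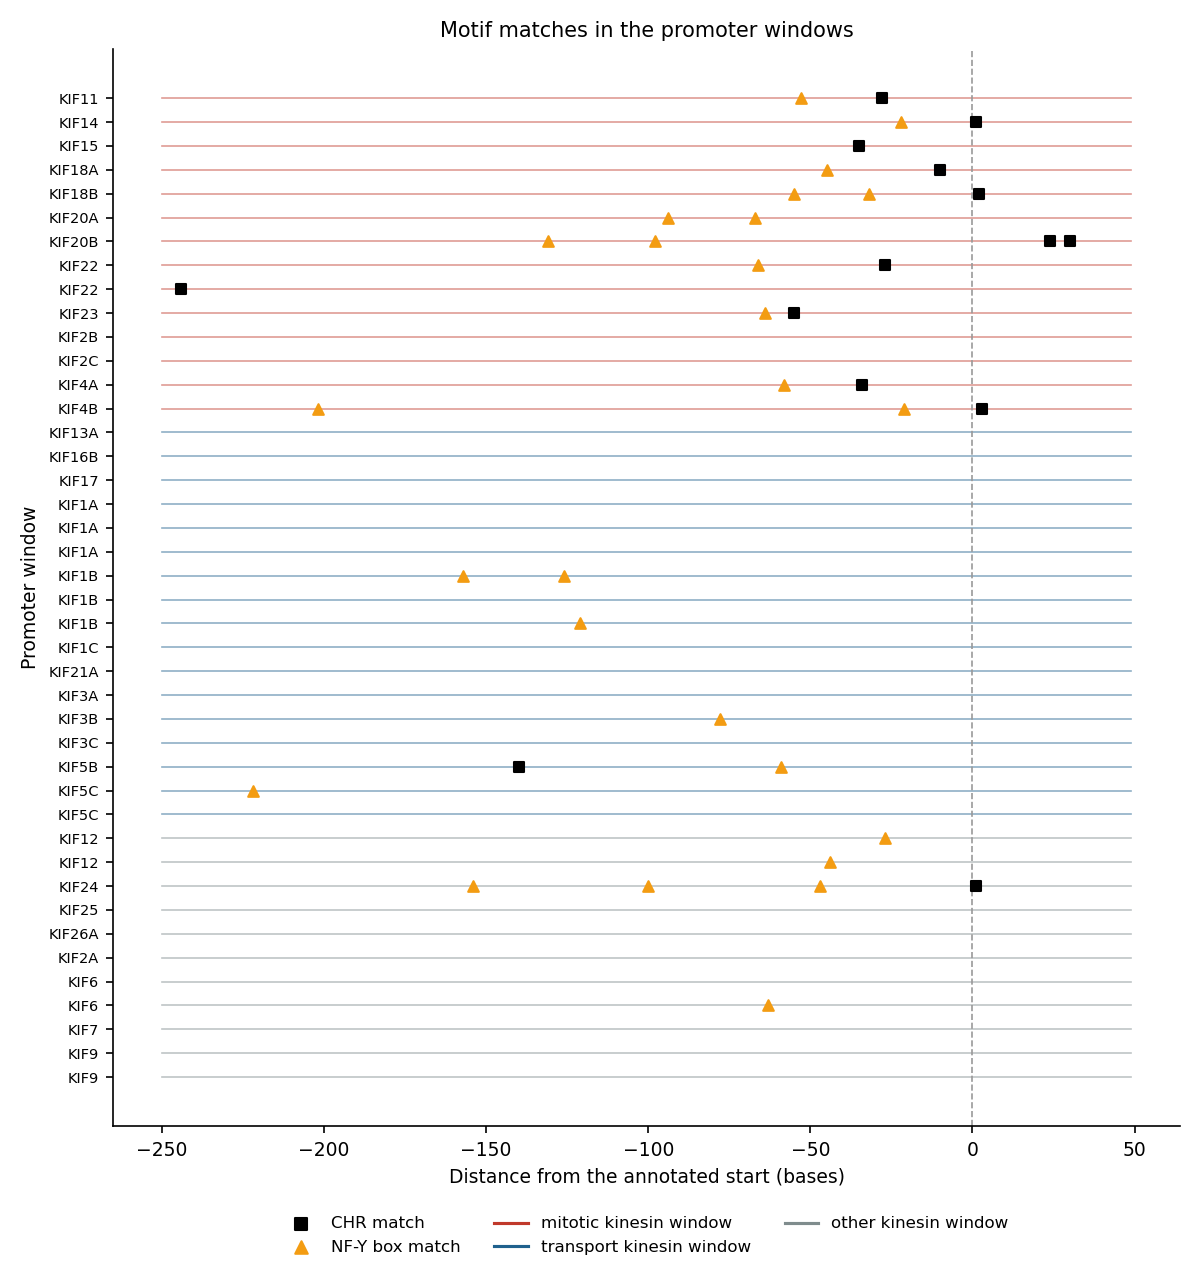
Distance in bases from the annotated start (horizontal axis) of CHR matches (squares) and CCAAT matches (triangles, named NF-Y box after the factor that binds them) in 42 RefSeq promoter windows of kinesin genes (rows, by class). CHR matches fill the mitotic rows, 11 of 14 windows, and are almost missing from the 17 transport rows, where 1 window has one.

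Library totals were 14142238 to 40204753 assigned counts, with a median of 20676228. Library 3 of hNMP-D4 stood apart from its partners in dividing-cell genes, and library 3 of hMN-D30 in the collagen gene COL1A1 (273.6 CPM, against 70.3 and 88.8 CPM in libraries 1 and 2), so the counts of called kinesins that rest on them are also given without them. Levels are CPM, a gene's counts scaled to library size. Levels of different single genes are set side by side only as TPM, which also divides by transcript length. Sums over several genes are in CPM, and the shares of the mitotic and transport classes are given in TPM too. In these bulk samples fewer cells of a type and less RNA per cell cannot be told apart. A gene was called when the adjusted p of edgeR's quasi-likelihood test was under 0.05. Changes are log2 fold changes with their standard error (SE).

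Mitotic kinesin RNA was highest during neural induction and nearly gone in the motor neuron cultures, where transport kinesin RNA was highest. Summed mitotic kinesin RNA was 1046.3 ± 27.0 CPM in hESC, 744.7 CPM in hNMP-D4 (833.6, 764.0 and 636.4 CPM by library), 1298.9 ± 35.2 CPM in NeuDet-D5, 794.6 ± 13.2 CPM in hSCNPC-P5 and 813.6 ± 15.9 CPM in hSCNPC-P40 (SD, n = 3 each). In the motor neuron cultures it was 41.3 ± 1.68 CPM on day 6, 33.9 ± 1.86 CPM on day 24 and 59.5 ± 1.29 CPM on day 42. The highest motor neuron library had 60.7 CPM and the lowest library of the other groups 636.4 CPM. Summed transport kinesin RNA was 1829.9 ± 84.9 CPM in hESC, 1417.9 ± 48.6 CPM in NeuDet-D6, 2297.2 ± 35.2 CPM in hSCNPC-P10, 5096.1 ± 280.4 CPM in hMN-D6 and 7199.7 ± 124.2 CPM in hMN-D24, the highest of the 22 groups. Of both sums together, mitotic kinesins were 47.6% in NeuDet-D5, the highest group, 23.4% in hNMP-D2, the lowest group outside the motor neurons, and 0.933% in hMN-D42, the highest motor neuron group. The gap between those last 2 shares was 25.1-fold in CPM and 17.9-fold in TPM. It was 8.76-fold (26.2% against 2.99%) with KIF2A and KIF24 counted as mitotic and KIF21A and KIF21B left out of the transport class.

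**Figure D2:**
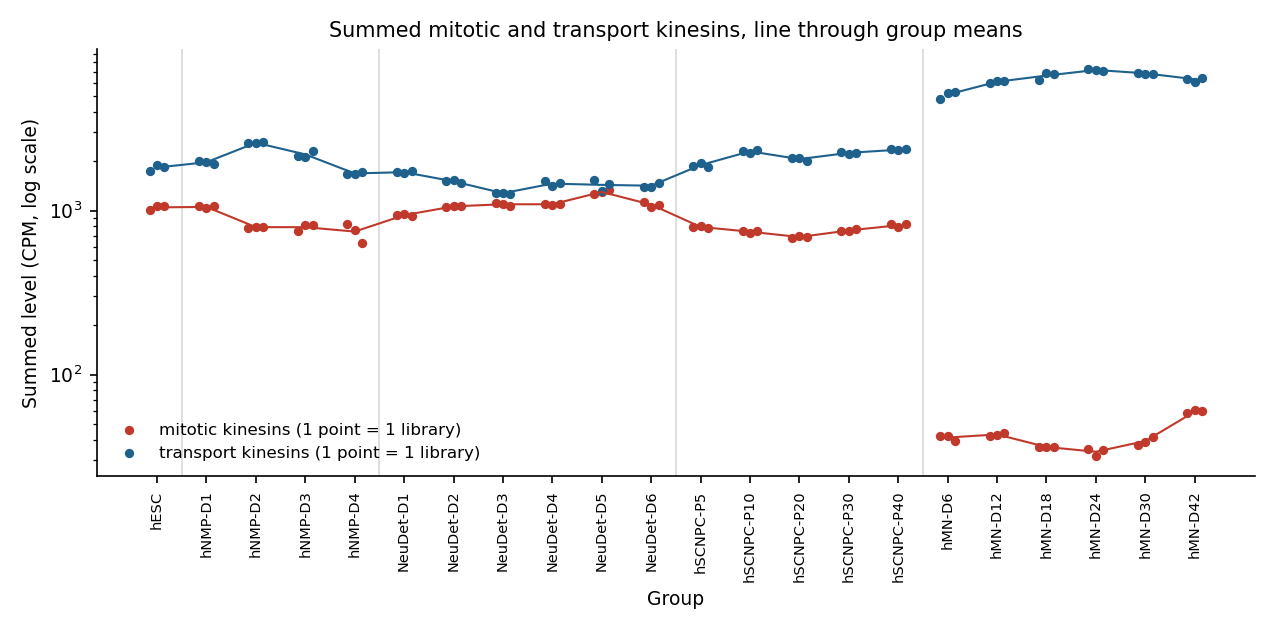
Summed CPM of the 13 mitotic kinesins (red) and the 15 transport kinesins (blue) in each of the 66 libraries (points), on a log axis, over the 22 groups, with lines through the group means broken before the motor neuron cultures. Mitotic sums lie between 636.4 and 1334.9 CPM outside the motor neuron groups and between 31.7 and 60.7 CPM within them, and transport sums are highest in hMN-D24.

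The peaks of most single genes followed the same split. Of the 13 mitotic kinesins, 6 had their highest group mean in NeuDet-D5, 2 in NeuDet-D4 and 1 in NeuDet-D3. KIF14 peaked in hESC, KIF23 in hNMP-D1, and KIF20B and the nearly absent KIF2B in hNMP-D3. Of the 15 transport kinesins, 9 had theirs in a motor neuron group, 5 of them in hMN-D24. The rest peaked at earlier stages, among them KIF1C in hSCNPC-P40. Peaks of all genes were not counted. The ratio of the highest to the lowest group mean was 230.5 for KIF20A, which carries the chromosomal passenger complex to the central spindle, and 180.6 for KIF5A, a neuronal conventional kinesin. At the other end it was 1.76 for KIF5B, the conventional kinesin of all cells, and 1.7 for KIF2A, which depolymerizes microtubules in spindles and in growing axons. KIF22, a chromosome-arm motor, was the flattest mitotic kinesin that was tested, with a ratio of 9.53.

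KIF6, KIF9, KIF19 and KIF27, which have roles in cilia, were low throughout, with highest group means of 0.858, 7.03, 2.56 and 3.72 TPM. The highest group means of the ciliary KIF3A, KIF3B and KIF7 were 88.3, 93.1 and 27.7 TPM. Group means ran from 1.04 to 3.7 CPM for KIF6, from 4.25 to 10.5 CPM for KIF9, from 0.148 to 4.67 CPM for KIF19 and from 4.61 to 8.75 CPM for KIF27. KIF12 was highest in hESC, at 3.27 ± 0.473 CPM, and KIF25 at 0.684 ± 0.131 CPM in hESC, and both had groups without a single count. KIF13A, KIF13B and KIF16B, membrane carriers used in many tissues, had their highest means before the progenitor stage, at 85.1 CPM in hNMP-D1, 39.6 CPM in hNMP-D3 and 18 CPM in hNMP-D4. Some members share exonic bases with other genes, 21.3% for KIF2A (DIMT1), 17.8% for KIF9 (KIF9-AS1 and KLHL18), 10.8% for KIF7 (TICRR), 10.7% for KIF27, 7.8% for KIF13B and for KIF22, 5.3% for KIF20A (BRD8 and CDC23) and 5.1% for KIF24. As the strand setting of the counting is not stated, reads there cannot be told apart.

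The first comparison, hNMP-D4 against hESC, compares the last day of the neuromesodermal stage with pluripotent cells. Of 12 mitotic kinesins tested, 8 fell and 0 rose, where 54.3% of the 21597 genes tested were called, 26.7% higher and 27.6% lower. Their median log2 fold change was -0.57, against 0.01 for all genes. KIF14, a motor of the cytokinetic bridge, had 43.0, 45.8 and 36.9 CPM in hNMP-D4 libraries, against 73.4, 80.2 and 85.1 CPM in hESC libraries. The groups did not overlap (-0.92, SE 0.0764, adjusted p = 2.54e-15 by edgeR's quasi-likelihood test). KIF18B, a plus-end motor that shortens astral microtubules, averaged 44 ± 8.64 CPM in hNMP-D4 and 80.3 ± 3.96 CPM in hESC (-0.87, SE 0.094, edgeR adjusted p = 3.42e-11). KIF20A had 75.8, 79.4 and 37.7 CPM in hNMP-D4 libraries, against 103.2, 118.2 and 115.5 CPM in hESC libraries (-0.81, SE 0.134, edgeR adjusted p = 3.59e-06). Library 3 was the low one, as it was for the summed mitotic kinesins and for a list of 8 other cycling-cell genes, whose sum ranged over 1138.2 to 1836.0 CPM in hNMP-D4. Without library 3, again 8 mitotic kinesins fell.

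Transport kinesins went both ways in the same comparison, with 4 higher, 7 lower and 4 not called of 15. The share called was 73.3%, beside 54.3% of all genes. KIF21B, a neuronal kinesin that tempers microtubule growth and carries dendritic cargo, had 12, 13.8 and 8.53 CPM in hNMP-D4 libraries, against 78.9, 90.7 and 83.6 CPM in hESC libraries. It fell by 2.89 on the log2 scale (SE 0.104, edgeR adjusted p = 1.74e-29), the largest change of the class. KIF17, a dendritic and ciliary motor, averaged 2.88 ± 1.25 CPM in hNMP-D4 and 12.2 ± 0.325 CPM in hESC (-2.10, SE 0.183, edgeR adjusted p = 1.5e-14). KIF5A averaged 23.5 ± 5.84 CPM in hNMP-D4 and 43.3 ± 5.92 CPM in hESC (-0.88, SE 0.112, edgeR adjusted p = 2.96e-09). KIF3C, the neuronal partner of KIF3A, fell by 0.74 and KIF5B fell by 0.17, the last call being lost under several alternatives. KIF3A and KIF3B, the motor pair of kinesin-2 that serves cilia and axons, rose by 0.32 and 0.29. KIF1A, the carrier of synaptic vesicle precursors, rose by 0.21, but its course was not steady, since hNMP-D2 had 1500.7, 1551.0 and 1572.0 CPM, above every library of hNMP-D4 (mean 714.9 CPM) and of hESC (mean 619.6 CPM). Without hNMP-D4 library 3 the count of transport kinesins that rose was 2. Beside them, 7 of 10 neuron markers rose and 3 fell, and their part in the result was not tested. Among other kinesins 3 rose and 4 fell. KIF26A, an atypical kinesin without motor activity, averaged 88.6 CPM in hNMP-D4 and 135.7 CPM in hESC (-0.61), and KIF2A fell by 0.33.

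NeuDet-D6 against hNMP-D4 compares the last day in neural determination medium with the stage before it, and mitotic kinesins were mostly higher. Of 12 tested, 11 rose and 1 fell, where 65.1% of genes were called, 30.3% higher and 34.8% lower, and the median of the 12 was 0.55, against -0.05 for all genes. Without hNMP-D4 library 3, the counts were 10 higher and 1 lower. KIF20A had 129.8, 116.5 and 155.7 CPM in NeuDet-D6 libraries, against 75.8, 79.4 and 37.7 CPM in hNMP-D4 libraries (1.01, SE 0.132, edgeR adjusted p = 2.71e-08). KIF2C, which depolymerizes microtubules at centromeres to free wrongly attached chromosomes, had 169.1, 158.5 and 159.7 CPM in NeuDet-D6 libraries, against 95.0, 84.9 and 72.5 CPM in hNMP-D4 libraries (0.90, SE 0.0605, edgeR adjusted p = 4.49e-19). Neither pair of groups overlapped. The one that fell was KIF20B, which acts late in cytokinesis, with 101.0, 91.9 and 84.4 CPM in NeuDet-D6 libraries, against 104.8, 97.9 and 120.2 CPM in hNMP-D4 libraries. Its groups overlapped (-0.28, SE 0.075, edgeR adjusted p = 0.00118), and without library 3 of NeuDet-D6 the count of mitotic kinesins that fell was 0. A list of 20 partners of mitotic kinesins, spindle and passenger complex genes, moved the same way, with 13 higher and 3 lower, and 7 of the 8 cycling-cell genes rose.

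KIF5A nearly vanished in the same step. It had 3.68, 4.1 and 5.31 CPM in NeuDet-D6 libraries, against 26.4, 27.4 and 16.8 CPM in hNMP-D4 libraries, and fell by 2.50 on the log2 scale (SE 0.131, edgeR adjusted p = 2.46e-22). KIF1A averaged 423.6 CPM in NeuDet-D6 and 714.9 CPM in hNMP-D4 (-0.81, edgeR adjusted p = 9.27e-15). KIF13A, a carrier of endosomes and receptors, fell by 0.91, KIF21A, the relative of KIF21B that stills microtubule ends, fell by 0.51, and KIF3C fell by 0.39. KIF21B rose by 0.96, KIF5B by 0.32, KIF5C by 0.30 and KIF3B by 0.13, while KIF3A was not called. In all 4 transport kinesins rose and 6 fell, and without hNMP-D4 library 3 the counts were 3 and 6. The share called was 66.7%, near the 65.1% of all genes, and the class median was -0.12. Beside them, 8 of 10 neuron markers rose and 2 fell, and 4 of 6 mesenchymal markers rose and 2 fell. KIF26B, an atypical kinesin that controls adhesion and polarity of embryonic cells, had the largest change of any member here. It had 8.17, 9.22 and 12.5 CPM in NeuDet-D6 libraries, against 0.105, 0.477 and 0.252 CPM in hNMP-D4 libraries (5.09, SE 0.295, edgeR adjusted p = 2.88e-21). Its paralogue KIF26A went the other way and fell by 0.79, and KIF7, the ciliary regulator of Hedgehog signalling, rose by 0.53.

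hSCNPC-P5 against NeuDet-D6 compares the established progenitors with the last day of induction. Of 12 mitotic kinesins, 8 fell and 0 rose, where 59.4% of genes were called, 28.8% higher and 30.6% lower. KIF20B had 38.3, 36.8 and 37.4 CPM in hSCNPC-P5 libraries, against 101.0, 91.9 and 84.4 CPM in NeuDet-D6 libraries (-1.29, SE 0.0799, edgeR adjusted p = 1.95e-20). KIF20A had 58.0, 63.4 and 67.4 CPM in hSCNPC-P5 libraries and 129.8, 116.5 and 155.7 CPM in NeuDet-D6 libraries (-1.07, SE 0.133, edgeR adjusted p = 9.92e-09). KIF14 fell by 0.83. None of these groups overlapped, and 15 of 20 mitotic partners fell beside them.

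Of the 15 transport kinesins, 7 rose and 3 fell in that step, so that 66.7% were called, beside 59.4% of all genes. Neuron markers moved with them, with 9 of 10 higher and 0 lower, summed at 933.7 to 974.9 CPM in hSCNPC-P5 and 451.7 to 531.3 CPM in NeuDet-D6. All 6 neural progenitor markers rose, summed at 3958.9 to 4052.8 CPM in hSCNPC-P5 and 920.0 to 979.6 CPM in NeuDet-D6, and the part of cell makeup in these changes was not tested. KIF5A returned, at 42.7, 51.3 and 43.7 CPM in hSCNPC-P5 libraries, against 3.68, 4.1 and 5.31 CPM in NeuDet-D6 libraries (3.43, SE 0.128, edgeR adjusted p = 3.79e-28). KIF21A had 258.2, 253.9 and 254.1 CPM in hSCNPC-P5 libraries, against 48.5, 46.8 and 42.9 CPM in NeuDet-D6 libraries (2.48, SE 0.0619, edgeR adjusted p = 4.95e-38). The libraries of each group lay close together and far from the other group. KIF17 (2.33), KIF21B (1.87), KIF1B, which carries mitochondria and synaptic vesicle precursors (1.17), KIF3C (0.79) and KIF13A (0.55) rose as well. KIF5B fell by 0.30, KIF1C, a carrier active in Golgi transport, fell by 0.27, and KIF3B fell by 0.16. KIF26B was lost again, with 0.592, 0.518 and 0.527 CPM in hSCNPC-P5 libraries, against 8.17, 9.22 and 12.5 CPM in NeuDet-D6 libraries (-4.16, SE 0.269, edgeR adjusted p = 2.96e-19). KIF24 averaged 29.9 CPM in hSCNPC-P5 and 15.9 CPM in NeuDet-D6 (0.93), KIF26A rose by 0.32 and KIF2A fell by 0.24.

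Long culture, hSCNPC-P40 against hSCNPC-P5, left most of the mitotic class uncalled, 9 of 12. KIF14 (0.37), KIF11, the motor that pushes spindle poles apart (0.23), and KIF15, which assists it (0.16), rose and 0 fell, where 46.9% of genes were called, 22.8% higher and 24.1% lower. The call of KIF15 sat at the threshold (edgeR adjusted p = 0.0498) and was lost under many alternatives. Without library 1 of hSCNPC-P5, or without library 3 of hSCNPC-P40, 1 mitotic kinesin rose, and in the second case 1 fell. The large change was in KIF26A (chr14:104136454-104180894), which was nearly lost by P40. It had 66.1, 66 and 65.3 CPM at P5, 89.3, 85.8 and 92.9 CPM at P10, 17.7, 15.7 and 16.9 CPM at P20, a mean of 5.54 CPM at P30, and 1.71, 1.95 and 1.3 CPM at P40. From P10 on, each passage lay below the one before with no overlap, and P40 against P5 gave -5.34 (SE 0.147, edgeR adjusted p = 6.55e-34). KIF26B, its paralogue, averaged 1.66 CPM in hSCNPC-P40 and 0.546 CPM in hSCNPC-P5 (1.57). The KIF26B share of the pair in TPM was 0.418% at P5 and 33.6% at P40, mostly through the larger fall of KIF26A.

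Of the transport kinesins, 6 rose and 2 fell with passage, so that 53.3% were called, beside 46.9% of all genes. Cell type markers moved as well. Of 6 neural progenitor markers 1 rose and 5 fell, summed at 2610.2 to 2762.7 CPM in hSCNPC-P40 and 3958.9 to 4052.8 CPM in hSCNPC-P5. Of 10 neuron markers 3 rose and 6 fell, although their sum was higher, at 1541.6 to 1617.6 CPM in hSCNPC-P40 and 933.7 to 974.9 CPM in hSCNPC-P5. Of 6 mesenchymal markers 1 rose and 4 fell, summed at 42.7 to 43.6 CPM in hSCNPC-P40 and 77.3 to 83.0 CPM in hSCNPC-P5, and the part of these in the kinesin changes was not tested. KIF1C had 219.8, 209.5 and 209.6 CPM in hSCNPC-P40 libraries, against 122.1, 124.9 and 116.7 CPM in hSCNPC-P5 libraries, without overlap (0.82, SE 0.0634, edgeR adjusted p = 2e-16). KIF1A averaged 558.9 CPM in hSCNPC-P40 and 385.6 CPM in hSCNPC-P5 (0.54), and KIF5B averaged 272.4 CPM in hSCNPC-P40 and 202.6 CPM in hSCNPC-P5 (0.44). KIF21A fell by 0.39 and KIF13B, a partner of polarity proteins, fell by 0.48. KIF7 averaged 28.7 CPM in hSCNPC-P40 and 43.9 CPM in hSCNPC-P5 (-0.60). KIF19, a depolymerizing kinesin of cilia, averaged 0.428 CPM in hSCNPC-P40 and 4.45 CPM in hSCNPC-P5 (-3.30). KIF12 and KIF25 had no count in any hSCNPC-P40 library and 9 and 11 counts over the 3 hSCNPC-P5 libraries, too few for a fold.

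hMN-D6 against hSCNPC-P10 asks how motor neuron cultures differ from progenitors. No library is labelled as day 0 and the passage that was differentiated is not given, so P10 was taken and P5 and P40 were tried in its place. The motor neurons were also in a table of their own, so table and group cannot be told apart here. All 12 mitotic kinesins tested fell, where 75.2% of 21175 genes were called, 38.5% higher and 36.7% lower. The median of the 12 was -4.95, against 0.08 for all genes. KIF4A, a chromosome motor that organizes the central spindle, had 2.27, 1.65 and 1.45 CPM in hMN-D6 libraries, against 87.9, 86.9 and 81.7 CPM in hSCNPC-P10 libraries (-5.63, SE 0.115, edgeR adjusted p = 4.1e-40). KIF2C had 2.16, 2.49 and 2.17 CPM in hMN-D6 libraries, against 108.2, 105.0 and 107.2 CPM in hSCNPC-P10 libraries (-5.58, SE 0.0956, edgeR adjusted p = 2.35e-43). KIF18B averaged 1.57 ± 0.404 CPM in hMN-D6 and 68.7 ± 6.29 CPM in hSCNPC-P10 (-5.46, SE 0.129, edgeR adjusted p = 5.83e-37). KIF11 had 2.6, 3.0 and 2.75 CPM in hMN-D6 libraries, against 103.8, 103.2 and 107.8 CPM in hSCNPC-P10 libraries (-5.26). These genes were left at a few CPM.

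The smallest falls were those of KIF20B and KIF22. KIF20B averaged 3.4 CPM in hMN-D6 and 35.2 CPM in hSCNPC-P10 (-3.39). KIF22 had 23.7, 21.0 and 20.7 CPM in hMN-D6 libraries, against 124.0, 121.0 and 121.5 CPM in hSCNPC-P10 libraries (-2.53, SE 0.056, edgeR adjusted p = 1.05e-38). KIF22 was 69.5% of the summed TPM of mitotic kinesins in hMN-D6, against 27.3% in hSCNPC-P10. Its share was 78.2% in hMN-D24 and 46.4% in hMN-D42. These shares depend on the length used, as KIF22 has 2081 bases in its canonical transcript and 7169 over all exons. In CPM, KIF22 averaged 21.8 of a class sum of 41.3 in hMN-D6, and 122.2 of 743.3 in hSCNPC-P10. KIF4B is an intronless near-identical copy of KIF4A, so its counts (6 over hMN-D6 and 84 over hSCNPC-P10) and its call are uncertain. KIF2B, a testis kinesin of kinetochores, had at most 2 counts over any group and was not tested.

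**Figure D3:**
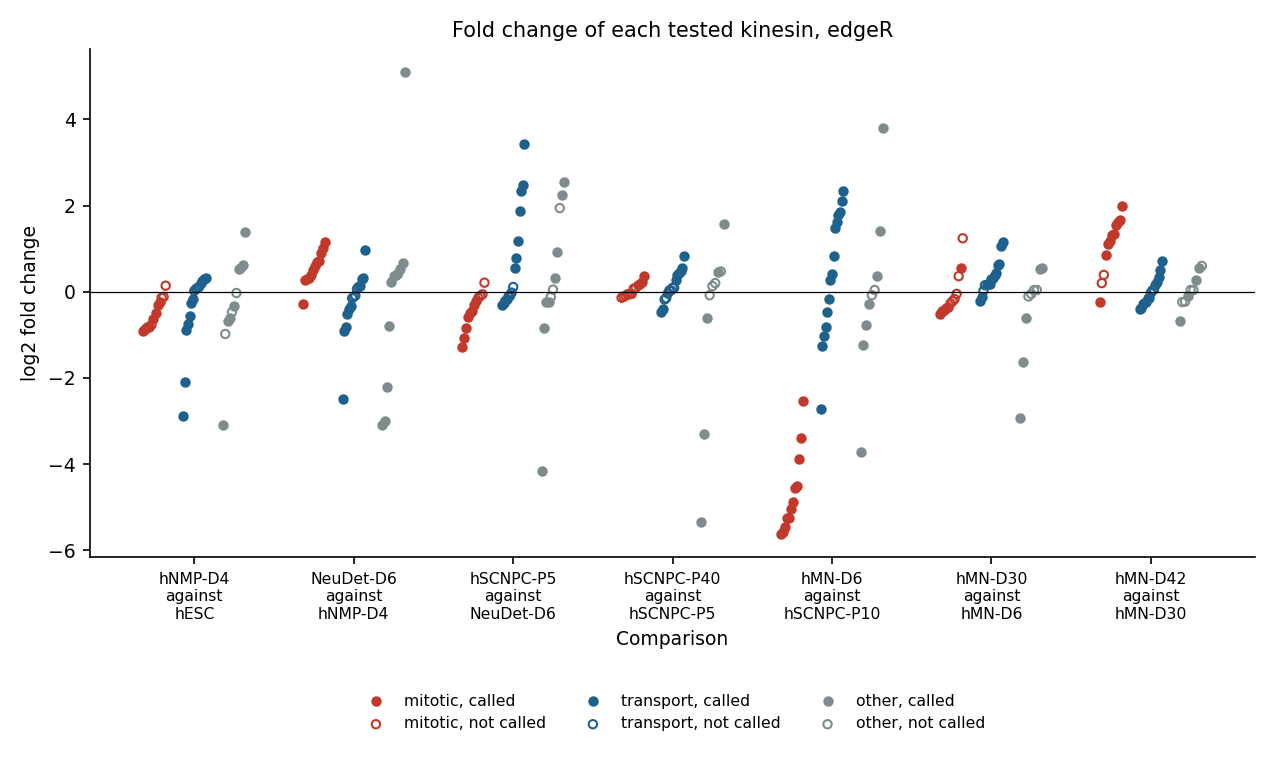
Log2 fold change (vertical axis) of each tested kinesin in the 7 comparisons (columns), coloured by class, with filled points for genes called by edgeR's quasi-likelihood test. In hMN-D6 against hSCNPC-P10 all 12 mitotic kinesins lie between -5.63 and -2.53, and the 15 transport kinesins spread from -2.71 to 2.33.

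Transport kinesins did not move as a block in that comparison. Of 15, 9 rose and 6 fell, where 75.2% of all genes were called. Their median was 0.42, against 0.08 for all genes. KIF21B (chr1:200969390-201023714) led, with 702.5, 792.6 and 811.9 CPM in hMN-D6 libraries, against 148.1, 142.1 and 154.8 CPM in hSCNPC-P10 libraries (2.33, SE 0.0513, edgeR adjusted p = 2.15e-35). KIF3C had 415.8, 445.1 and 466.2 CPM in hMN-D6 libraries, against 99.2, 96.5 and 103.3 CPM in hSCNPC-P10 libraries (2.11, SE 0.0452, edgeR adjusted p = 2.58e-39). KIF5A (chr12:57546026-57586633) had 340.0, 354.0 and 368.2 CPM in hMN-D6 libraries, against 93.2, 90.2 and 102.5 CPM in hSCNPC-P10 libraries (1.85, SE 0.0475, edgeR adjusted p = 5.19e-36). In each of these the lowest neuron library was over every progenitor library. KIF1A had 1354.7, 1529.1 and 1582.4 CPM in hMN-D6 libraries, against 520.0, 488.1 and 547.4 CPM in hSCNPC-P10 libraries (1.48). KIF5C, the other neuronal conventional kinesin, had 518.9, 531.7 and 532.2 CPM in hMN-D6 libraries, against 167.7, 171.9 and 165.8 CPM in hSCNPC-P10 libraries (1.61). KIF3A (1.78), KIF3B (0.82), KIF1B (0.42) and KIF21A (0.28) rose too.

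Of the 6 transport kinesins that fell, KIF1C fell most. The gene, at chr17:4997950-5028401, had 16.8, 18.8 and 19.9 CPM in hMN-D6 libraries, against 122.2, 111.4 and 120.5 CPM in hSCNPC-P10 libraries, and fell by 2.71 (SE 0.0595, edgeR adjusted p = 7.14e-39). KIF16B, an endosome motor, fell by 1.25, KIF17 fell by 1.02, KIF13A fell by 0.81 and KIF13B fell by 0.48. KIF5B changed little, with 211.1, 201.6 and 206.1 CPM in hMN-D6 libraries, against 231.2, 234.3 and 214.9 CPM in hSCNPC-P10 libraries (-0.18, edgeR adjusted p = 0.000251). The choice of passage mattered for small changes. With hSCNPC-P5 in place of P10, KIF5B was not called (-0.01) and KIF21A was called in the other direction (-0.19). Large changes kept their direction, KIF21B giving 3.17 with P5 and 3.10 with P40, and KIF5A giving 2.91 with P5 and 2.89 with P40.

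Other kinesins split as well, with 3 higher and 4 lower of 9 tested. KIF24 had 2.1, 2.28 and 2.41 CPM in hMN-D6 libraries, against 28.9, 25.8 and 33.6 CPM in hSCNPC-P10 libraries (-3.73, SE 0.131, edgeR adjusted p = 3.18e-30). KIF7 fell by 0.78 and KIF19 fell by 1.23. KIF26A reached its highest level of all groups, 237.3, 249.5 and 240.7 CPM in hMN-D6 libraries (1.40, against a mean of 89.4 CPM in hSCNPC-P10), and KIF26B had 6.92, 8.07 and 7.72 CPM in hMN-D6 libraries, against 0.778, 0.266 and 0.415 CPM in hSCNPC-P10 libraries (3.81). KIF2A was not called (0.04).

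Genes of proteins that work with these motors were also followed in hMN-D6 against hSCNPC-P10. Of 19 tested kinesin light chains and cargo adaptors 14 rose and 3 fell, with a median of 0.72. KIFAP3, the non-motor subunit of the KIF3 motor, changed by 1.87, and KLC1, a light chain of KIF5, averaged 203.1 CPM in hMN-D6 and 113.1 CPM in hSCNPC-P10. Of 16 dynein and dynactin genes, whose motor runs the other way, 14 rose, with DYNC1I1 at 3.37, and 2 fell, among them the light chain DYNLL1 at -1.05. All 20 mitotic partners fell, with a median of -4.87, and so did all 8 cycling-cell genes, summed at 91.4 to 94.8 CPM in hMN-D6 and 1884.4 to 1922.7 CPM in hSCNPC-P10. Against these, 5 of 6 motor neuron markers rose, and the 10 neuron markers all rose and summed to 10252.9 to 10526.3 CPM in hMN-D6 and 1619.3 to 1649.1 CPM in hSCNPC-P10. All 6 neural progenitor markers fell, and of 6 mesenchymal markers 5 fell and 0 rose. Of 8 astrocyte and oligodendrocyte markers 4 rose and 1 fell. Their sum was lower, at 16.3 to 18.8 CPM in hMN-D6 and 223.5 to 241.7 CPM in hSCNPC-P10. The part of cell makeup in the kinesin changes was not tested.

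Within families, the shares of paralogues in TPM shifted between groups, and not always the same way. Of the KIF5 family, KIF5B was 68.3% ± 1.7 in hESC, 74.9% ± 1.21 in NeuDet-D6 and 48.7% ± 1.61 in hSCNPC-P10, and only 20.4% ± 0.712 in hMN-D6 and 15.4% ± 0.0994 in hMN-D42 (SD, n = 3 each). KIF5A was 13.6% ± 1.23 in hESC, 1.33% ± 0.321 in NeuDet-D6, 20.8% ± 1.69 in hSCNPC-P10, 35.5% ± 0.805 in hMN-D6 and 58.9% ± 1.2 in hMN-D42. Other passages lay further from the neurons than P10. KIF5B was 60.6% in hSCNPC-P5 and 66.4% in hSCNPC-P40, and KIF5A was 13.9% in hSCNPC-P5 and 11.6% in hSCNPC-P40. KIF5C was the largest of the family in hMN-D6, at 44% ± 0.395, and was 25.7% ± 1.13 in hMN-D42. By these shares the leading KIF5 gene was KIF5B in progenitors, KIF5C on day 6 and KIF5A from day 12 on. In hMN-D12 KIF5A was 44.8% and KIF5C 41.5%. The order of paralogues depends on the length used, and other lengths were not tried. KIF5C has 6954 bases in its canonical transcript and 33151 over all exons, KIF5A has 5779 and 12245, and KIF5B has 5866 for both. Of the KIF1 family, KIF1C was 1.02% in hMN-D6 and 12.6% in hSCNPC-P10, with KIF1A at 70.9% in hMN-D6 and 47.8% in hSCNPC-P10. The KIF1A share was not highest in hMN-D6, since it was 80.3% in hNMP-D2 and 74.5% in hNMP-D3. Of the KIF3 family, KIF3C was 63.1% in hMN-D6, 47.4% in hSCNPC-P10 and 57.2% in hESC. Of the KIF21 pair KIF21B was 69.4% in hMN-D6, 35.4% in hSCNPC-P10 and 47.9% in hESC. In hSCNPC-P5 it was 18.2%, and in hSCNPC-P40 it was 23.6%.

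**Figure D4:**
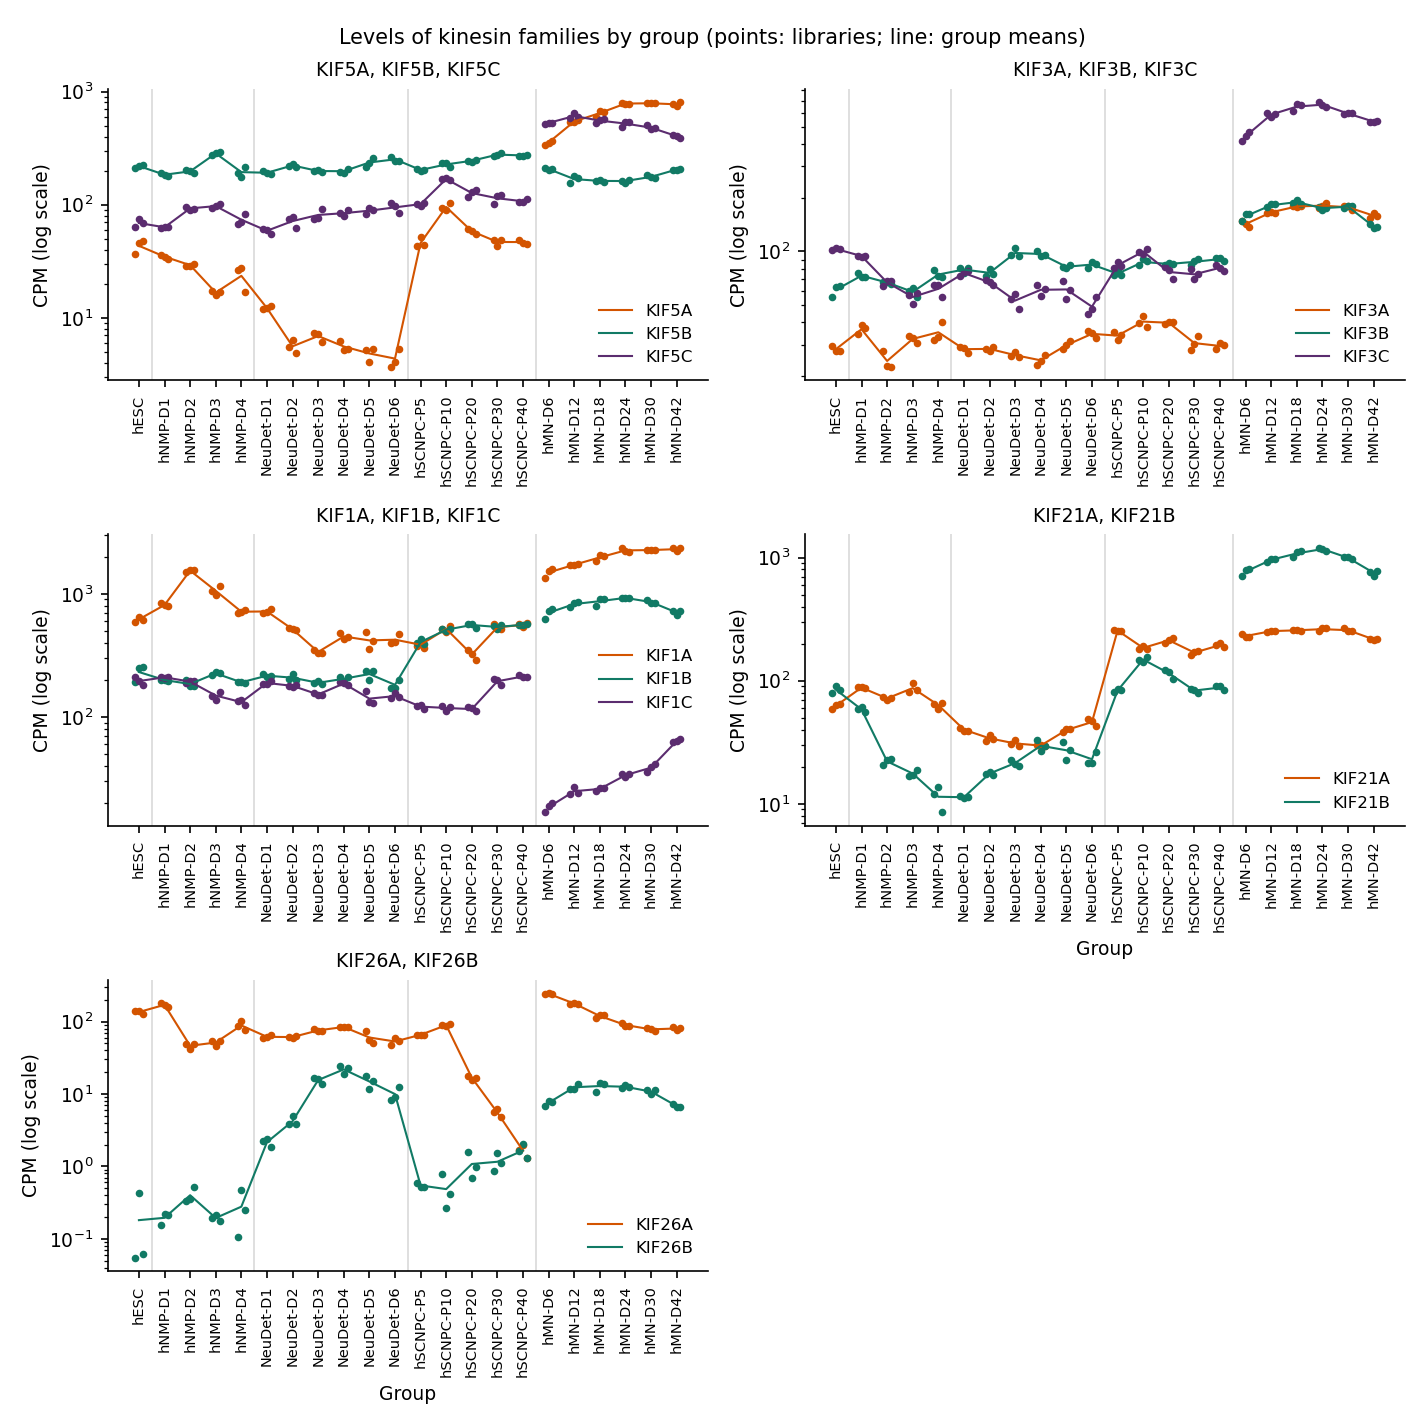
CPM per library (points, log axis) of KIF5A, KIF5B and KIF5C, KIF3A, KIF3B and KIF3C, KIF1A, KIF1B and KIF1C, KIF21A and KIF21B, and KIF26A and KIF26B over the 22 groups, 1 panel a family. KIF5B stays within a 1.76-fold range of group means while KIF5A spans 180.6-fold, KIF1C is low in the motor neuron groups, and KIF26A drops to a mean of 1.65 CPM in hSCNPC-P40.

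hMN-D30 against hMN-D6 follows the neurons in culture. Of 15 transport kinesins 11 rose and 2 fell, where 63.4% of genes were called, 32.9% higher and 30.5% lower, and without library 3 of hMN-D30 the counts were 10 and 2. KIF5A had 786.8, 788.1 and 787.3 CPM in hMN-D30 libraries, against 340.0, 354.0 and 368.2 CPM in hMN-D6 libraries (1.16, SE 0.044, edgeR adjusted p = 2.35e-28). KIF1C had 35.7, 39.2 and 41.3 CPM in hMN-D30 libraries, against 16.8, 18.8 and 19.9 CPM in hMN-D6 libraries (1.07, SE 0.0636, edgeR adjusted p = 1.95e-20). Neither pair overlapped. KIF1A averaged 2263.8 CPM in hMN-D30 and 1488.7 CPM in hMN-D6 (0.61), KIF17 rose by 0.64, KIF3C by 0.43, KIF21B by 0.38, KIF3A by 0.32, KIF3B by 0.19 and KIF21A by 0.17. KIF5B fell by 0.22 and KIF5C fell by 0.13. KIF2A rose to 112.0 CPM in hMN-D30, against 77.6 CPM in hMN-D6 (0.54), and KIF26A fell to 78.2 CPM in hMN-D30, against 242.5 CPM in hMN-D6 (-1.62). Of the mitotic kinesins only KIF20B rose (0.56, edgeR adjusted p = 0.000144), to 5.04 CPM in hMN-D30, against 3.4 CPM in hMN-D6. KIF15, KIF4A and KIF11 fell, all below 5 CPM in both groups, and these calls were not stable. The count that fell was 0 without library 2 of hMN-D30, 1 without library 2 of hMN-D6, 2 without library 3 of hMN-D30 and 1 with the compared groups fitted alone.

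Markers of other cells moved in this step too. Of 6 mesenchymal markers 5 rose and 0 fell, summed at 108.6 to 356.3 CPM in hMN-D30, the highest being library 3, and 51.4 to 58.1 CPM in hMN-D6. Of 8 astrocyte and oligodendrocyte markers 6 rose and 1 fell, summed at 45.4 to 55.6 CPM in hMN-D30 and 16.3 to 18.8 CPM in hMN-D6. Of 6 neural progenitor markers 1 rose and 4 fell, summed at 390.2 to 401.0 CPM in hMN-D30 and 1344.8 to 1403.4 CPM in hMN-D6. Of 10 neuron markers 4 rose and 6 fell, summed at 8902.7 to 9074.2 CPM in hMN-D30 and 10252.9 to 10526.3 CPM in hMN-D6. Their part in the kinesin changes was not tested.

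hMN-D42 against hMN-D30 brought mitotic kinesins up again from a low level. Of 12 tested, 9 rose and 1 fell, where 41.7% of genes were called, 21.8% higher and 19.9% lower, with a median of 1.24, against 0.00 for all genes. KIF4A had 4.86, 5.54 and 4.87 CPM in hMN-D42 libraries, against 1.26, 1.31 and 1.28 CPM in hMN-D30 libraries (1.99, SE 0.158, edgeR adjusted p = 7.87e-15). KIF11 had 6.54, 6.98 and 6.85 CPM in hMN-D42 libraries, against 1.88, 2.12 and 2.43 CPM in hMN-D30 libraries (1.67, SE 0.129, edgeR adjusted p = 3.56e-15). The groups did not overlap, and outside the neurons the lowest library had 48.7 CPM of KIF4A and 86.2 CPM of KIF11. KIF18B (1.61), KIF14 (1.54), KIF2C (1.34), KIF23, a subunit of centralspindlin (1.32), KIF20A (1.17), KIF15 (1.11) and KIF18A, which aligns chromosomes (0.85), rose too. KIF22 had 18.8, 18.6 and 16.1 CPM in hMN-D42 libraries, against 20.2, 20.9 and 21.4 CPM in hMN-D30 libraries (-0.23, edgeR adjusted p = 0.00368), a call lost without library 3 of hMN-D42 (-0.16, edgeR adjusted p = 0.0838). Without library 3 of hMN-D30, again 9 rose and 1 fell.

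**Figure D5:**
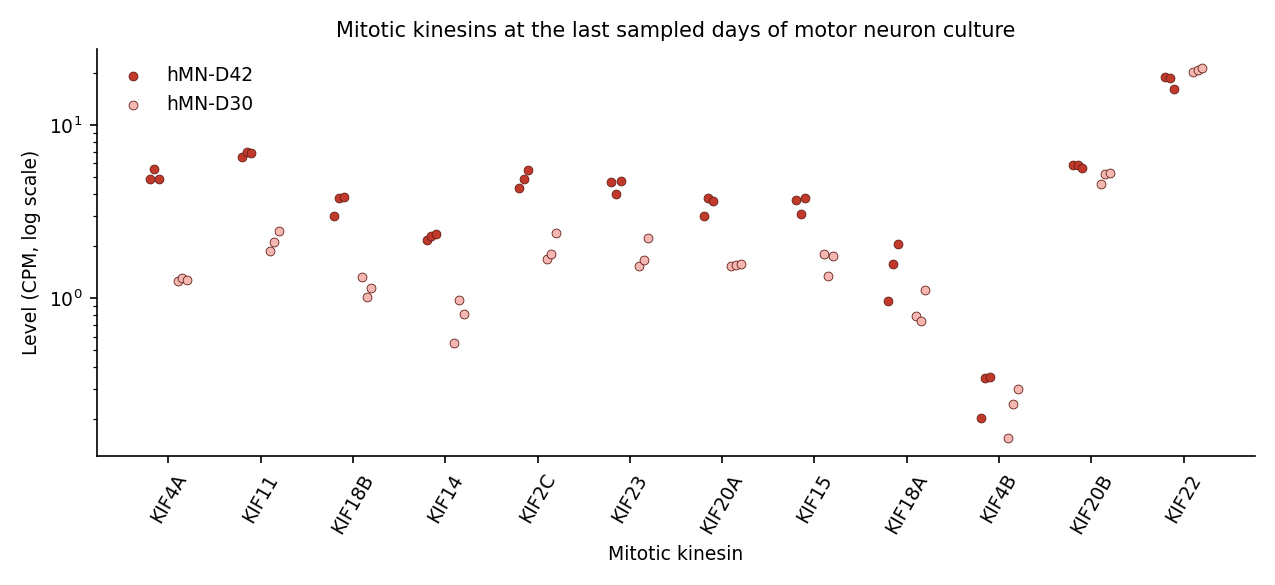
CPM per library (points, log axis) of the 12 tested mitotic kinesins in hMN-D42 (left of each pair) and hMN-D30 (right of each pair). For KIF4A and KIF11 the 3 hMN-D42 libraries lie above the 3 hMN-D30 libraries, and for KIF22 they lie below.

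Markers of cell division and of several cell types moved with this rise. Of 20 mitotic partners 16 rose and 0 fell, and all 8 cycling-cell genes rose, summed at 122.3 to 133.6 CPM in hMN-D42 and 61.2 to 73.5 CPM in hMN-D30. The 6 mesenchymal markers rose, summed at 812.3 to 929.3 CPM in hMN-D42 and 108.6 to 356.3 CPM in hMN-D30, with COL1A1 at 722.5, 613.8 and 686.1 CPM in hMN-D42 libraries. The 8 astrocyte and oligodendrocyte markers, 5 of which rose and 1 of which fell, summed to 126.4 to 136.6 CPM in hMN-D42 and 45.4 to 55.6 CPM in hMN-D30, and GFAP averaged 8.71 CPM in hMN-D42 and 0.739 CPM in hMN-D30. The 6 neural progenitor markers, 4 of which rose and 0 of which fell, summed to 496.8 to 504.0 CPM in hMN-D42 and 390.2 to 401.0 CPM in hMN-D30. The 10 neuron markers, 7 of which fell and 0 of which rose, summed to 8056.0 to 8177.8 CPM in hMN-D42 and 8902.7 to 9074.2 CPM in hMN-D30. Their part in the result was not tested.

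Transport kinesins turned down slightly in the same step, with 4 higher and 7 lower of 15, and the same counts without library 3 of hMN-D30. The share called was 73.3%, beside 41.7% of all genes, and the class median was -0.03. KIF21B had 767.1, 712.5 and 776.8 CPM in hMN-D42 libraries, against 1005.6, 1008.3 and 971.9 CPM in hMN-D30 libraries (-0.40). KIF3B (-0.37), KIF1B (-0.28), KIF5C (-0.25), KIF21A (-0.24), KIF3A (-0.15) and KIF3C (-0.15) fell too. The transport kinesins that rose were KIF1C, KIF17 (0.51), KIF16B (0.35) and KIF5B (0.22). KIF1C had 62.1, 63.2 and 65.9 CPM in hMN-D42 libraries, against 35.7, 39.2 and 41.3 CPM in hMN-D30 libraries (0.72, SE 0.0545, edgeR adjusted p = 1.33e-15). KIF5A was not called, with 768.7, 737.6 and 803.9 CPM in hMN-D42 libraries, against 786.8, 788.1 and 787.3 CPM in hMN-D30 libraries, nor were KIF1A and KIF26A. KIF26B fell by 0.67 and KIF2A fell by 0.11.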

How the data were processed

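RNA sequencing reads were processed by the authors with fastp, HISAT2 2.1.0 and featureCounts 1.5.3 against hg38, per the methods and the submitters' processing notes, and they deposited whole-number read counts per gene in 2 tables, of 48 and 18 libraries, with no normalization. The GENCODE release and strand setting are not given in the sources used here.

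Gene symbols came from GENCODE v44 (60261 of 60603 IDs, 99.44%). Counts were fitted with edgeR 4.0.16 in R 4.3.3 (TMM scaling, filterByExpr, quasi-likelihood F test, Benjamini-Hochberg adjustment over all genes), as the methods name no test for these comparisons. One fit held the 48 libraries of the first table, and one the 18 of the second with 3 of hSCNPC-P10. The SE is the absolute log2 fold change divided by the square root of F. CPM were scaled by TMM over both tables, so a fold change can differ slightly from the ratio of CPM. TPM used the length of the Ensembl canonical transcript. The edgeR code was run on simulated counts for hNMP-D4 against hESC and for hMN-D6 against hSCNPC-P10. Those runs fitted the compared groups alone, so they do not test the larger fits used here, and their outcome is not given. Figures and summaries used Python 3.11.15.

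The members, classes and lists were chosen with earlier results of these data known. Members named with values were drawn mainly from the called members of largest change whose higher group averaged at least 5 CPM, up to 3 per direction and class. To these were added 12 transport and other members (the KIF3, KIF5, KIF21 and KIF26 genes, KIF1A and KIF2A). Reporting by this rule was not complete. Many members are given by log2 fold change alone, without SE or p, and some, KIF9 and KIF27 among them, were left out of comparisons in which they were called. Alternatives tried were RLE scaling, DESeq2 1.42.0, no filter, the compared groups alone, wider classes, other passages for hSCNPC-P10, a replicate block and leaving out each library. The wider mitotic class took in KIF2A and KIF24, and the transport class then left out KIF21A and KIF21B. KIF2B was not tested, nor were KIF12 and KIF25 among the motor neurons, since their counts were too low. Protein sequences were not used here.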

Additional observations from a re-analysis of the deposited data

How the results depend on the processing

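Of 176 counts of called kinesins under other settings 165 stayed within 1.5 times and 11 moved. With wider classes, mitotic kinesins higher were 1 in hNMP-D4 (0 as reported), 1 in hSCNPC-P5 (0) and 2 in hMN-D30 (1), mitotic kinesins lower were 2 in hMN-D42 (1), transport kinesins lower were 1 in hSCNPC-P40 (2), and the gap between the mitotic shares was 8.76-fold (25.1). With the compared groups alone, mitotic kinesins lower were 0 in NeuDet-D6 (1), 1 in hSCNPC-P40 (0) and 1 in hMN-D30 (3). With RLE scaling and with DESeq2, 1 mitotic kinesin was lower in hSCNPC-P40 (0). With no filter, 1 was lower in hMN-D30 (3). The cause was not tested. KIF21A reversed with hSCNPC-P5 in place of P10 (-0.19), and KIF2A with hSCNPC-P40 (-0.1). Of single kinesins in single settings, 1478 kept their direction and call, 52 lost the call, 9 gained one and 2 reversed.

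Leaving out each library in turn, mitotic kinesins higher were 0 to 1 in hNMP-D4, 10 to 11 in NeuDet-D6, 1 to 3 in hSCNPC-P40 and 8 to 9 in hMN-D42. Mitotic kinesins lower were 7 to 9 in hNMP-D4, 0 to 1 in NeuDet-D6, 7 to 8 in hSCNPC-P5, 0 to 1 in hSCNPC-P40, 12 in hMN-D6, 0 to 3 in hMN-D30 and 0 to 1 in hMN-D42. Transport kinesins higher were 2 to 5 in hNMP-D4, with 2 when library 3 of hNMP-D4 was left out, and 3 to 6 in NeuDet-D6.

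The replicate numbers did not pair the samples. With the replicate block, 2 mitotic kinesins were higher in hSCNPC-P40 (3 without it) and 10 transport kinesins in hMN-D30 (11). In hNMP-D4 against hESC each library correlated best with its own number (0.09, 0.081 and 0.055), a hint from the data only.

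Depth limited the lowest members. KIF2B, KIF12 and KIF25 were near 0 in most groups, so no fold was given for KIF2B, or for KIF12 and KIF25 in hSCNPC-P40, and mitotic kinesins in motor neurons rest on a few CPM.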
